A study of Mus musculus with 12 samples.

Results

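The heat shock proteins examined here are 9 genes chosen by symbol and by NCBI Gene ID. They comprise 3 forms known from germ cells, Hspa2 (15512), Hspa4l (18415) and Hspa1l (15482), and 6 general forms, Hspa8 (15481), Hspa5 (14828), Hsp90ab1 (15516), Hsp90aa1 (15519), Hspa1a (193740) and Hspa1b (15511). All 9 are among the 22221 rows of the deposited expression table, and 7 passed the filter for testing, which asks for at least 1 FPKM in at least 3 libraries. FPKM is the number of fragments scaled to transcript length and to the library total. Hspa1l and Hspa1a did not pass, and Hspa1b passed only through the busulfan libraries. The study sequenced testis RNA of ICR mice (an outbred stock) in 12 libraries, 3 in each of 4 groups. In the first 3 groups the mice had received 1 dose of busulfan, an alkylating drug toxic to dividing germ cells, at 3 weeks of age. IMA10 mice were then given gut microbiota of donors that had received alginate oligosaccharide (10 mg/kg body weight). IMC mice were given microbiota of donors that had received ddH2O, and Sa mice were given saline. The microbiota treatment lasted 2 weeks, with testes taken another 3 weeks later. Con mice had no treatment, and their age is not given. The deposited design text calls the testes cultured but describes no culture. The labels do not say that the libraries of a group came from separate animals, so p-values reflect only the variation among these samples, and it may be technical.

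IMA10 replicate 3 stood apart from the other busulfan libraries. On the first principal component, with 88.6% of the variance of log2 values, it lay at -81.1. The other busulfan libraries lay between 24.2 and 127.6, and Con lay between -167.4 and -161.2. Results that change with this library are given with and without it. In the table, the column names of Con begin otherwise than those of the busulfan libraries, and a batch and the absence of treatment cannot be told apart. The files hold no counts, so read depth is unknown.

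HSP70 proteins bind unfolded stretches of other proteins and release them through cycles of ATP hydrolysis, which J-proteins start and exchange factors complete. HSP90 proteins act later, on clients that are nearly folded. Male germ cells make their own members of these families. Hspa2 appears in meiotic spermatocytes, and mice without it are sterile because spermatocytes stop in meiosis. Hspa1l is a spermatid form, and Hspa4l is an HSP110-type exchange factor abundant in testis. Among the general forms, Hspa8 is the constitutive HSP70 of the cytosol, Hspa5 (BiP) is that of the endoplasmic reticulum, and Hspa1a and Hspa1b are the stress-inducible pair. Hsp90ab1 is the constitutive cytosolic HSP90. Hsp90aa1 is the other cytosolic HSP90, stress-inducible in many cells, and male mice without it are sterile.

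The stretches before the transcription start are shown because the letters of known stress elements can be looked for in them. RefSeq (GRCm38.p6) promoter windows of 250 bases before an annotated start were found for 6 of the 9 members, and not for Hspa8, Hsp90aa1 and Hsp90ab1. The stretch shown for Hspa2 lies inside the RefSeq span of that gene (chr12:76403812-76406938), so it is not upstream of the whole gene. Bases that GENCODE vM21 places in an exon are not shown, so Hspa1l, Hspa1a and Hspa1b are given whole, Hspa5 by its first 130 bases and Hspa2 by its first 56. For Hspa4l only 19 bases lie before the first such exon, and none is shown. In Hspa1a and Hspa1b capitals mark the 3 bases at which these windows differ. In the other windows capitals mark matches to the motifs below, and Hspa2 has none in the part shown. In the Hspa5 element capitals mark the fixed parts of the endoplasmic reticulum stress motif.
Hspa1a, chr17:34972157-34972406, minus strand: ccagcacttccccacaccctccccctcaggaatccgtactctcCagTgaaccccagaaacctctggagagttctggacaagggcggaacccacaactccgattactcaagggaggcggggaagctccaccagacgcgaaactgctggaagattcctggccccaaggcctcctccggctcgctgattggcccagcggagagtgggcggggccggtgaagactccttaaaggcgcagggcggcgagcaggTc
Hspa1b, chr17:34959239-34959488, minus strand: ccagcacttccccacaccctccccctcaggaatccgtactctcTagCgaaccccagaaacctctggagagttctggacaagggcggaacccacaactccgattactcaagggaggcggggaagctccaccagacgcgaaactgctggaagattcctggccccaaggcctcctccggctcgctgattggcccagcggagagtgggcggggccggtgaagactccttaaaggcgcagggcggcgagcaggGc
Hspa1l, chr17:34972453-34972702, plus strand: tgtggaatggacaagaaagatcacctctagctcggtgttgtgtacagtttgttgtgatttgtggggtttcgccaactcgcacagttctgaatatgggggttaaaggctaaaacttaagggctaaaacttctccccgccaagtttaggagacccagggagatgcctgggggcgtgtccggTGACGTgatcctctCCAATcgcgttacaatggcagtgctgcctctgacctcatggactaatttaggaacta
Hspa2, chr12:76404120-76404175, plus strand: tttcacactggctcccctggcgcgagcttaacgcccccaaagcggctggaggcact
Hspa5, chr2:34771840-34771969, plus strand: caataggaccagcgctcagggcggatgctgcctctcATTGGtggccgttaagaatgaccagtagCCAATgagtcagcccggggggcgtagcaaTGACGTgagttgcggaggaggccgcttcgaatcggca
Hspa5 element, chr2:34772025-34772043, plus strand: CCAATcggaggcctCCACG

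The Hspa1a and Hspa1b windows are 98.8% identical, and each holds a heat shock motif GAANNTTC beginning 104 bases before the start. Searched on both strands, this motif is in 6.78% of 27025 mouse promoter windows. No match to it, or to TTCNNGAA, which is in 7.1% of windows, was found in the windows of Hspa2, Hspa4l, Hspa1l and Hspa5. The windows are unlike in content. GENCODE exons cover 114 of the 250 bases for Hspa2, 231 for Hspa4l and 120 for Hspa5, against 0 for Hspa1l, Hspa1a and Hspa1b. The endoplasmic reticulum stress motif, CCAAT and CCACG with 9 bases between them, is in 33 windows (0.122%), among them that of Hspa5, 65 bases before the start. It contains a CCAAT box, so the matches overlap. The box CCAAT alone is in 34.5% of windows and in those of Hspa2, Hspa1l, Hspa1a, Hspa1b and Hspa5. The motif TGACGT, known from cyclic AMP response elements, is in 6.56% of windows, and it lies 71 bases before the start of Hspa1l and 157 before that of Hspa5. These are matches of letters only.

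Sequence likeness also bears on how well reads can be assigned. The longest open reading frames of Hspa1a and Hspa1b were 99.4% identical, while Hspa2 was 78.2% identical to Hspa1a, 73.6% to Hspa8 and 61.4% to Hspa5. Hsp90aa1 and Hsp90ab1 were 75.6% identical. No stretch of 100 bases of the Hspa2, Hspa5, Hspa4l or Hsp90ab1 transcript recurred in a transcript of another gene. Of such stretches, 63.4% recurred for Hspa8 and 47.5% for Hsp90aa1, for the most part in pseudogene transcripts. For Hspa1a and Hspa1b the shares were 56.5% and 49.9%, chiefly in each other. For Hspa1l 70.8% lay in Gm10501, a gene on the opposite strand over the same place. The authors' counting could have split reads of these 5 genes, so their levels are uncertain, and the strand of counting is not given.

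**Figure D1:**
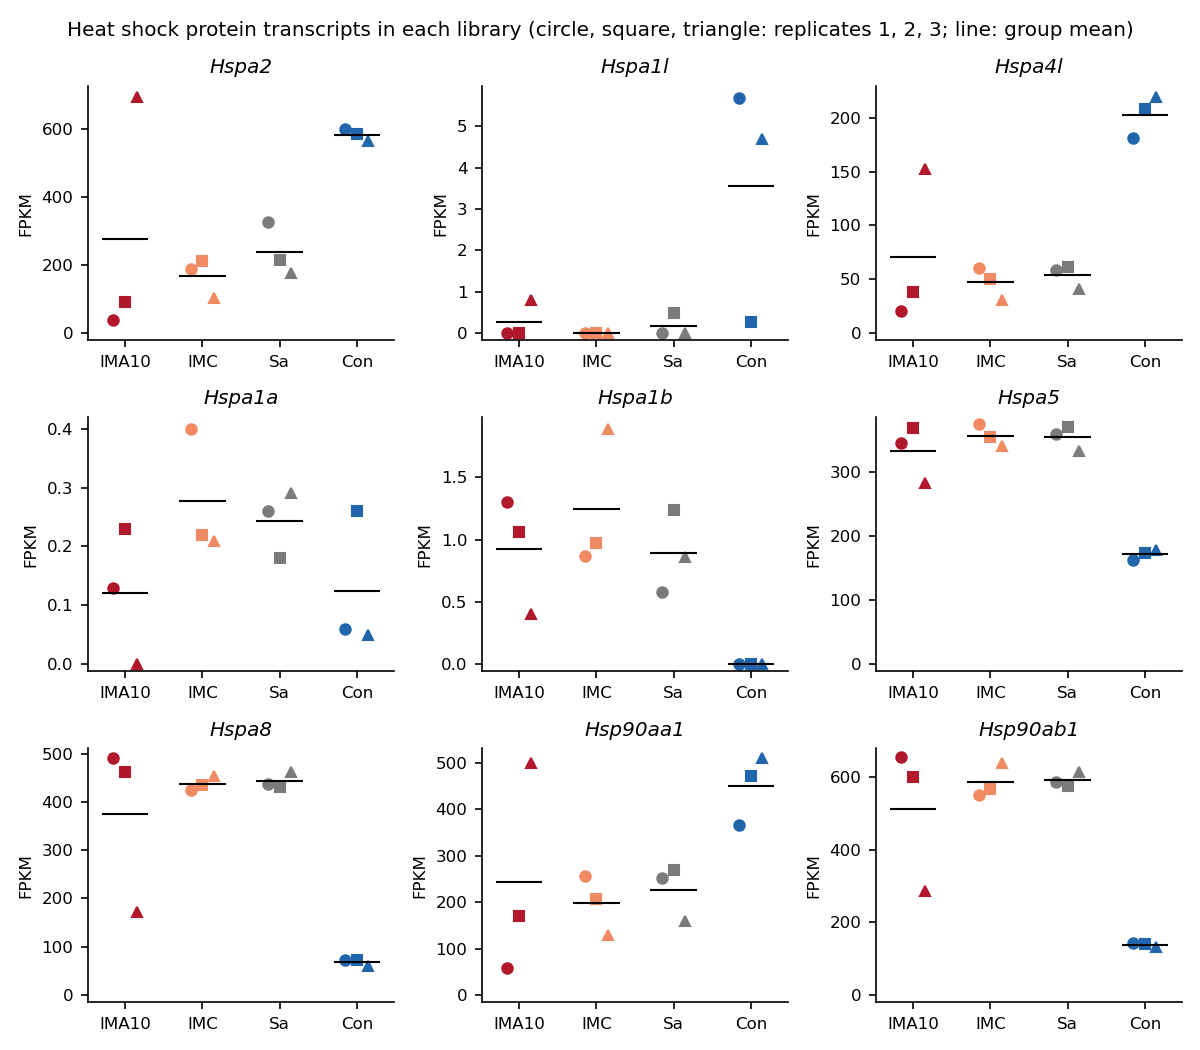
FPKM of each of the 9 genes (vertical axes from 0, each with its own scale) in the 12 libraries, grouped as IMA10, IMC, Sa and Con; circles, squares and triangles are replicates 1, 2 and 3, and lines are group means. Hspa2, Hspa4l and Hsp90aa1 are highest in Con and in IMA10 replicate 3, while Hspa8, Hsp90ab1 and Hspa5 are lowest in Con.

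The germ cell forms were low in busulfan testes. Hspa4l, the HSP110-type form, fell in all 3 busulfan groups, and Hspa2, the spermatocyte form, lay below the untreated range in 8 of 9 busulfan libraries. Hspa2 had 39.29, 92.35 and 695.2 FPKM in IMA10 libraries, 189.55, 211.93 and 103.69 in IMC, 327.94, 216.18 and 175.62 in Sa, and 600.73, 585.64 and 565.86 in Con. IMA10 replicate 3 was above all Con libraries, and the other 2 IMA10 libraries were the lowest of the 12. Sa and IMC did not overlap with Con.

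In limma's moderated test across all genes Hspa2 differed by -1.33 ± 0.82 on the log2(FPKM + 1) scale in Sa minus Con (SE, adjusted p = 0.16). It differed by -1.85 ± 0.82 in IMC minus Con (adjusted p = 0.0606), so neither passed at an adjusted p under 0.05. In IMA10 minus Con it differed by -2.09 ± 0.82 and passed (adjusted p = 0.0411), although the ranges overlap. Leaving out IMA10 replicate 3, which adds to the shared estimate of the spread, Hspa2 fell in all 3 comparisons. It then fell by 1.33 ± 0.36 in Sa, by 1.85 ± 0.36 in IMC and by 3.25 ± 0.40 in IMA10 (adjusted p = 0.00539, 6.7e-04 and 2.48e-05). Without IMA10 replicate 1, a further library whose absence changed a call, IMC minus Con passed (adjusted p = 0.0211) and IMA10 minus Con did not (-1.20, adjusted p = 0.158). IMA10 minus Con also missed the threshold without IMA10 replicate 2 (-1.80, adjusted p = 0.126), without any 1 Con or Sa library, and without IMC replicate 1 or 2, so this call depends on single libraries. In bulk tissue, fewer cells of a type and less RNA per cell cannot be told apart.

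Hspa4l had 20.12, 38.37 and 152.35 FPKM in IMA10 libraries, 60.66, 50.5 and 30.35 in IMC, 59.02, 60.94 and 41.27 in Sa, and 181.58, 208.27 and 219.77 in Con. All 9 busulfan libraries were below Con, IMA10 replicate 3 nearest to it. Hspa4l fell by 1.92 ± 0.59 in Sa, by 2.13 ± 0.59 in IMC and by 2.02 ± 0.59 in IMA10 (log2 scale, SE, limma adjusted p = 0.0138, 0.00776 and 0.0116). It passed with any 1 library left out, and was at -2.82 ± 0.32 in IMA10 without replicate 3. A fit of the IMA10 and Con libraries alone did not pass for Hspa4l (adjusted p = 0.0584).

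Hspa1l, the spermatid form, was low everywhere. It had 0, 0 and 0.79 FPKM in IMA10 libraries, 0 in each IMC library, 0, 0.48 and 0 in Sa, and 5.69, 0.27 and 4.7 in Con. Con replicate 2 was below IMA10 replicate 3 and Sa replicate 2, so Con overlapped with those groups. It was not tested with the other genes because too few libraries reached 1 FPKM. Without the filter its limma adjusted p was 0.029 in IMA10, 0.0123 in IMC and 0.0209 in Sa against Con. Only Con replicates 1 and 3 reached 1 FPKM, so these p-values are given as a description and support no difference.

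The general forms did not behave as 1 group. Hspa8, Hsp90ab1 and Hspa5 were higher in every busulfan library than in any Con library. Hsp90aa1 lay below Con in 8 of 9 busulfan libraries, without passing the test in any group in the equal-weight fit of the 12 libraries as deposited. Hspa8, the constitutive HSP70, had 490.07, 461.25 and 171.21 FPKM in IMA10 libraries, 423.98, 435.81 and 453.07 in IMC, 436.98, 430.06 and 462.66 in Sa, and 71.52, 72.69 and 59.62 in Con. The busulfan libraries other than IMA10 replicate 3 lay close together, and that library lay between them and Con. Its mean level in Sa was 443 ± 17.2 FPKM, which is 6.52 times the Con mean of 67.9 ± 7.23 (SD, n = 3 each). Hspa8 rose by 2.69 ± 0.33 in Sa, by 2.67 ± 0.33 in IMC and by 2.30 ± 0.33 in IMA10 (log2 scale, SE, limma adjusted p = 3.36e-04, 3.08e-04 and 9.11e-04).

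Hsp90ab1, the constitutive HSP90, had the highest level of the 9 genes in every busulfan library except IMA10 replicate 3. It had 654.39, 600.09 and 286.63 FPKM in IMA10 libraries, 549.91, 567.18 and 639.19 in IMC, 587.05, 577.11 and 615.56 in Sa, and 142.94, 140.13 and 133.25 in Con. As for Hspa8, IMA10 replicate 3 lay between the groups. Hsp90ab1 rose by 2.09 ± 0.27 in Sa, by 2.07 ± 0.27 in IMC and by 1.79 ± 0.27 in IMA10 (log2 scale, SE, limma adjusted p = 3.5e-04, 3.08e-04 and 9.16e-04). The Sa mean of 593 ± 20 FPKM was 4.27 times the Con mean of 139 ± 4.99 (SD, n = 3 each).

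Hspa5, the HSP70 of the endoplasmic reticulum, had 345.6, 369.64 and 283.3 FPKM in IMA10 libraries, 375.57, 354.75 and 341.42 in IMC, 359.03, 370.98 and 333.69 in Sa, and 162.38, 174.3 and 178.25 in Con. No busulfan library overlapped with Con, and IMA10 replicate 3 was again nearest to it. Hspa5 rose by 1.04 ± 0.14 in Sa, by 1.05 ± 0.14 in IMC and by 0.94 ± 0.14 in IMA10 (log2 scale, SE, limma adjusted p = 3.53e-04, 3.08e-04 and 9.16e-04). The median over all 15472 genes tested was 0.60, 0.52 and 0.41 in the same comparisons. Median-of-ratios scaling, which shifts that median by -0.63, -0.56 and -0.45, leaves Hspa5 at 0.24 in Sa (adjusted p = 0.0952), 0.33 in IMC (adjusted p = 0.0306) and 0.36 in IMA10 (adjusted p = 0.0232). Hspa8 and Hsp90ab1 were at 1.89 and 1.29 in Sa minus Con after that scaling and still passed (adjusted p = 9.43e-04 and 0.00151).

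Hsp90aa1, the HSP90 that male meiosis needs, had 57.31, 170.25 and 498.71 FPKM in IMA10 libraries, 256.19, 207.19 and 129.79 in IMC, 250.58, 268.38 and 158.23 in Sa, and 364.77, 471.91 and 508.68 in Con. IMA10 replicate 3 lay within the Con range, and the other 8 busulfan libraries lay below it. Hsp90aa1 differed by -1.01 ± 0.63 in Sa, by -1.22 ± 0.63 in IMC and by -1.38 ± 0.63 in IMA10 and passed in none (log2 scale, SE, limma adjusted p = 0.163, 0.0978 and 0.0683). Without IMA10 replicate 3 it fell by 1.01 ± 0.39, by 1.22 ± 0.39 and by 2.16 ± 0.44 and passed in all 3 (adjusted p = 0.0342, 0.0146 and 9.76e-04). Without IMA10 replicate 1 it passed in Sa and in IMC (adjusted p = 0.046 and 0.0213). Under median-of-ratios scaling it was at -1.81, -1.95 and -1.97 and passed in each (adjusted p = 0.0276, 0.0195 and 0.0208), and Hspa2 was at -2.13, -2.58 and -2.67 (adjusted p = 0.0417, 0.0184 and 0.0179).

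The stress-inducible pair was close to the floor in all 12 libraries. Hspa1a had 0.13, 0.23 and 0 FPKM in IMA10 libraries, 0.4, 0.22 and 0.21 in IMC, 0.26, 0.18 and 0.29 in Sa, and 0.06, 0.26 and 0.05 in Con, and the ranges of all groups overlap. Hspa1b had 1.3, 1.06 and 0.4 FPKM in IMA10 libraries, 0.87, 0.97 and 1.89 in IMC and 0.58, 1.24 and 0.86 in Sa, and it was listed at 0 in all 3 Con libraries. No fold is given against values listed at 0. Hspa1b entered the test only through the busulfan libraries, where it is high, so its calls against Con (adjusted p = 0.00477, 0.00127 and 0.00545 in Sa, IMC and IMA10) are given as a description and support no difference. Under quantile normalization Sa minus Con did not pass (adjusted p = 0.0684). Since the reading frames are 99.4% identical, reads of one gene may have been counted for the other.

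**Figure D2:**
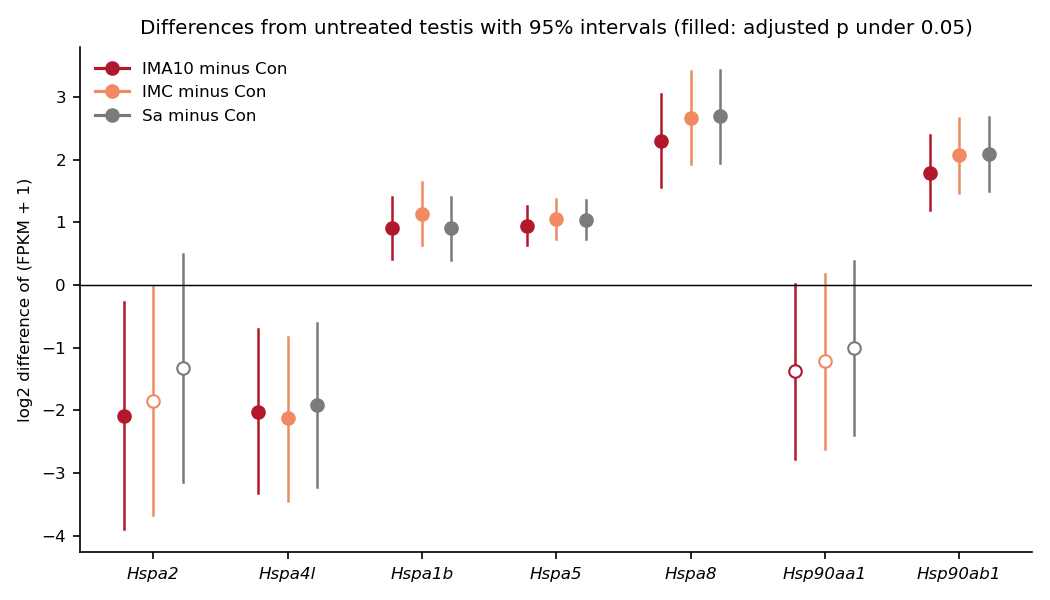
Differences from Con on the log2(FPKM + 1) scale (vertical axis) with 95% intervals (lines) for the 7 tested genes (horizontal axis) in IMA10, IMC and Sa; filled symbols have an adjusted p under 0.05. Hspa8, Hsp90ab1 and Hspa5 lie above 0 and Hspa4l below 0 in all 3 groups, and the intervals of Hsp90aa1 reach 0.

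Counted together, 4 of the 7 tested genes were called higher and 1 lower in Sa minus Con, and the same numbers were called in IMC minus Con. In IMA10 minus Con 4 were called higher and 2 lower. One of the 4 in each comparison is Hspa1b, a call that the filter itself selected. Hspa1b is also part of the non-overlaps and of the median of the general forms below, and lends them no support. Large parts of the transcriptome were called as well. Over all genes tested, 71.2% were called in Sa minus Con (52.0% higher and 19.2% lower), 74.1% in IMC minus Con (50.8% and 23.3%) and 71.6% in IMA10 minus Con (47.7% and 23.9%). The 7 genes did not overlap with Con in Sa and in IMC, against 88.2% and 88.3% of all genes, and 5 did not overlap in IMA10, against 67.4%. Being called therefore does not set these genes apart. The median difference of the 2 tested germ cell forms was -1.62 in Sa, -1.99 in IMC and -2.05 in IMA10, and that of the 5 tested general forms was 1.04, 1.14 and 0.94. The value for IMC is that of Hspa1b, which depends on the pseudocount because Con is listed at 0. Of all calls in Sa minus Con 73.1% were higher as deposited, against 49.1% under median-of-ratios scaling and 55.8% under quantile normalization. Without IMA10 replicate 3 the 7 genes, Hspa1b among them, were called in each comparison with Con. The shares of all genes called were then 85.7% for Sa, 85.9% for IMC and 86.7% for IMA10.

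**Figure D3:**
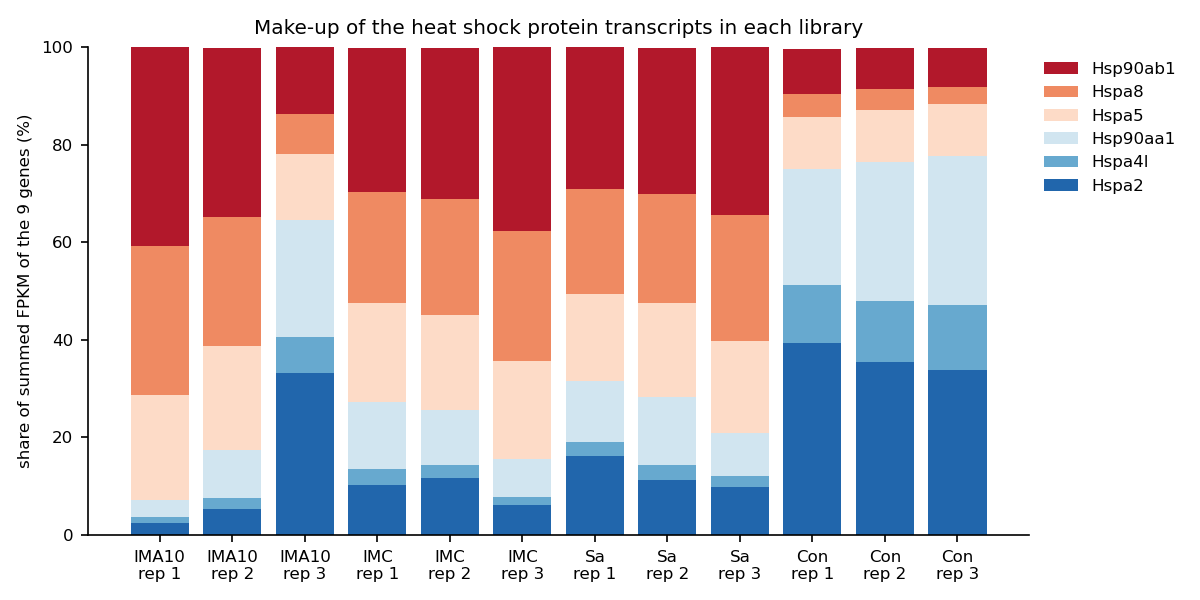
Stacked bars give the share (%, vertical axis from 0 to 100) of Hspa2, Hspa4l, Hsp90aa1, Hspa5, Hspa8 and Hsp90ab1 in the summed FPKM of the 9 genes in each library, ordered IMA10, IMC, Sa and Con; the other 3 genes are too low to draw. Germ cell forms hold 47.3 to 51.5% in Con and 3.69 to 19.1% in the busulfan libraries other than IMA10 replicate 3, which holds 40.6%.

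Added together, the 9 genes had 1608 to 2089 FPKM in busulfan libraries and 1530 to 1670 in Con. The make-up of this sum differed more than its size. Germ cell forms made up 3.69, 7.54 and 40.6% in IMA10 libraries, 13.5, 14.4 and 7.89% in IMC, 19.1, 14.4 and 12.1% in Sa, and 51.5, 48 and 47.3% in Con. No busulfan library reached the Con range, and IMA10 replicate 3 came nearest to it. Hsp90ab1 alone made up 29, 30 and 34.4% in Sa libraries and 9.34, 8.47 and 7.98% in Con. FPKM is scaled per length, so these are shares of transcripts rather than of reads.

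**Figure D4:**
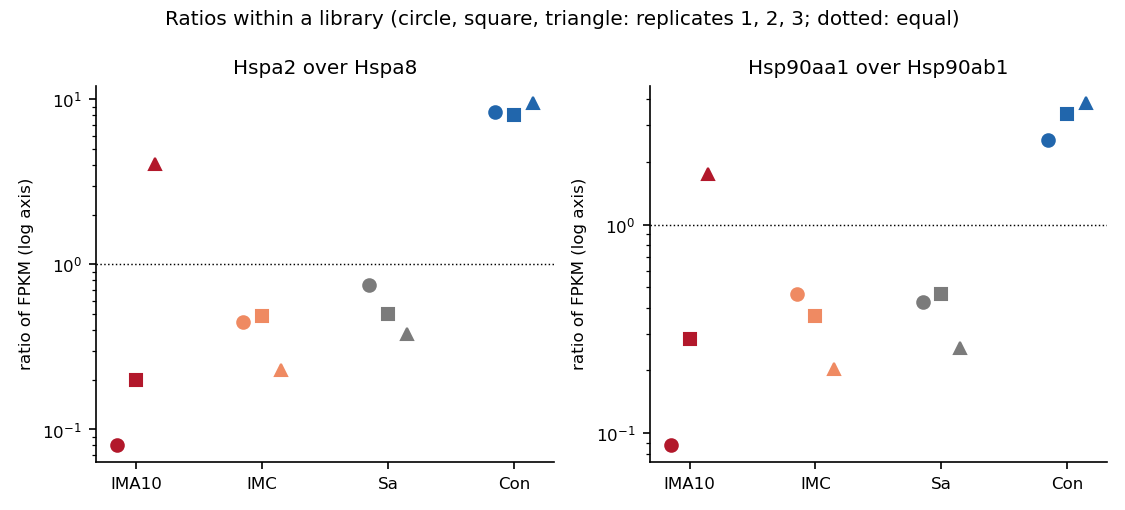
Ratios of FPKM within a library (log axes) for Hspa2 to Hspa8 and for Hsp90aa1 to Hsp90ab1 in IMA10, IMC, Sa and Con; symbols are replicates and the dotted line marks equal levels. Both ratios are above 1 in Con and in IMA10 replicate 3 and below 1 in the other 8 busulfan libraries.

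A ratio of 2 genes within a library does not depend on how that library was scaled. Hspa2 to Hspa8, the spermatocyte over the constitutive HSP70, was 0.0802, 0.2 and 4.06 in IMA10 libraries, 0.447, 0.486 and 0.229 in IMC, 0.75, 0.503 and 0.38 in Sa, and 8.4, 8.06 and 9.49 in Con. No busulfan library overlapped with Con. The difference in mean log2 ratio was -4.04 for Sa minus Con, -4.55 for IMC minus Con and -4.42 for IMA10 minus Con. On average the ratio was thus 16.5-fold lower in Sa, 23.5-fold lower in IMC and 21.4-fold lower in IMA10 than in Con. Each had p = 0.1 in an exact two-sided permutation test, the smallest that 3 against 3 allows, and 0.2 after Benjamini-Hochberg adjustment over 6 comparisons. The IMA10 minus Con difference was -3.26 without IMA10 replicate 1, -3.92 without replicate 2 and -6.09 without replicate 3, so its size depends on single libraries. The ratio of Hsp90aa1 to Hsp90ab1, the cytosolic HSP90 pair, was 0.0876, 0.284 and 1.74 in IMA10 libraries, 0.466, 0.365 and 0.203 in IMC, 0.427, 0.465 and 0.257 in Sa, and 2.55, 3.37 and 3.82 in Con. The more abundant HSP90 transcript was thus Hsp90ab1 in 8 busulfan libraries and Hsp90aa1 in IMA10 replicate 3 and Con.

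**Figure D5:**
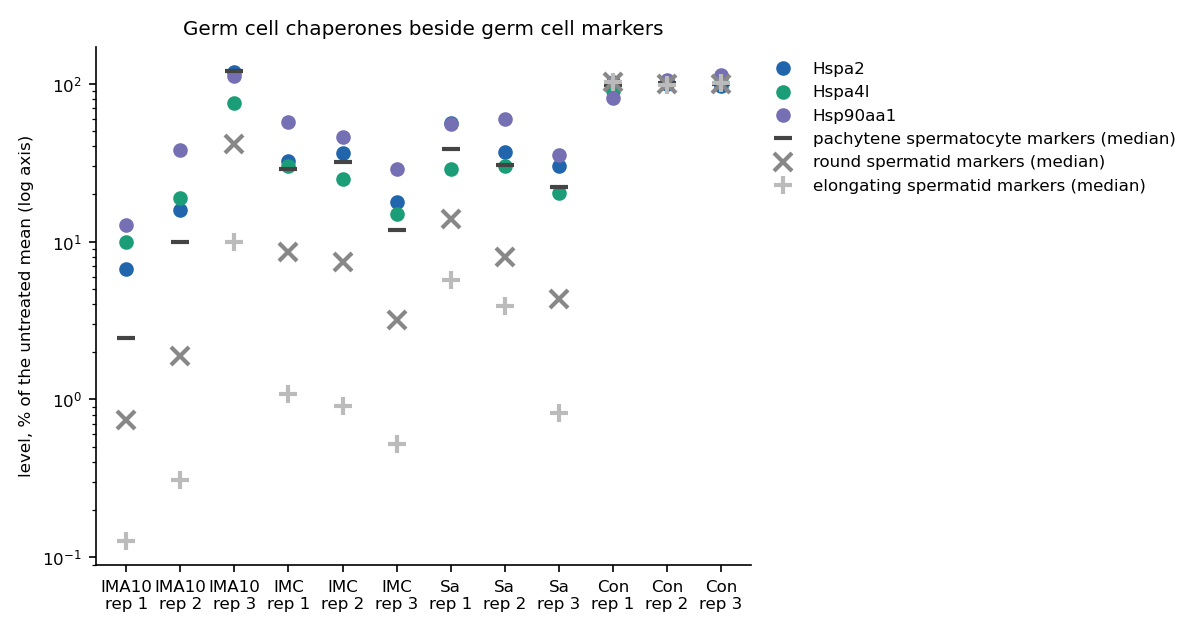
Levels as a percentage of the Con mean (vertical log axis) in each library for Hspa2, Hspa4l and Hsp90aa1 (circles), beside the medians of the pachytene spermatocyte, round spermatid and elongating spermatid marker lists (dashes and crosses). Within each busulfan group Hspa2 ranks the libraries in the same order as the pachytene list, with the lowest value in IMA10 replicate 1 and the highest in IMA10 replicate 3.

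Markers of the cells in the tissue also differed between libraries. Relative to the Con mean, Hspa2 was at 6.73, 15.8 and 119% in IMA10 libraries, 32.5, 36.3 and 17.8% in IMC and 56.1, 37 and 30.1% in Sa. The median of 10 pachytene spermatocyte markers was at 2.46, 9.99 and 121% in IMA10, 29, 31.7 and 11.9% in IMC and 38.7, 30.6 and 22.1% in Sa. Within each busulfan group the 3 libraries ranked in the same order by both measures. Hspa4l was at 9.9, 18.9 and 75% in IMA10, 29.9, 24.9 and 14.9% in IMC and 29, 30 and 20.3% in Sa. Hspa4l did not keep the pachytene order within IMC and Sa. Hsp90aa1 was at 12.8, 38 and 111% in IMA10, 57.1, 46.2 and 28.9% in IMC and 55.9, 59.8 and 35.3% in Sa. It kept the pachytene order in IMA10 and not in IMC and Sa. In all 9 busulfan libraries Hsp90aa1 kept a larger part of its Con level than Hspa4l.

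Summed over the list, pachytene markers had 188 to 5840 FPKM in IMA10, 714 to 1750 in IMC, 1190 to 2280 in Sa and 6500 to 6780 in Con. Of the 10 pachytene markers 0 were called higher and 2 lower in Sa minus Con, with a median difference of -1.75. Without IMA10 replicate 3, 7 were lower, as were 4623 of 15412 genes. With all libraries 52.0% of all genes were called higher and 19.2% lower (median 0.60). Later germ cell stages were further down, with 9 of 10 round spermatid markers lower (median -3.47) and all 10 elongating spermatid markers lower (median -5.24). The elongating sum was 87.8 to 4720 FPKM in IMA10, 236 to 522 in IMC, 406 to 2550 in Sa and 44400 to 46800 in Con. Most spermatogonia markers went the other way, with 8 of 9 higher in Sa (median 1.76), and 1 lower too without IMA10 replicate 3. In IMC 7 were higher and 1 lower (median 1.22), against 50.8% and 23.3% of all genes. In IMA10 5 were higher and 1 lower (median 0.60), against 47.7% and 23.9%. The sum of these markers was 121 to 231 FPKM in IMA10, 217 to 291 in IMC, 260 to 291 in Sa and 49 to 55.9 in Con. Whether the number of spermatogonia differed was not tested.

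Somatic markers rose along with Hspa8, Hsp90ab1 and Hspa5. All 10 Sertoli cell markers were called higher in Sa minus Con (median 3.65), against 52.0% of all genes (median 0.60). Their sums were 2620 to 15500 FPKM in IMA10, 10300 to 12100 in IMC, 8060 to 9930 in Sa and 474 to 572 in Con. Called higher too were the 8 Leydig cell, 5 peritubular myoid, 8 macrophage and 5 endothelial markers, and 2 of 4 tested red blood cell markers. The Sertoli median in IMA10 replicate 3 was 442% of Con, against 1400 to 2640% in the other busulfan libraries, and Hspa8 in that library was at 252%, against 624 to 721%. One round spermatid marker was listed at 0 in IMA10 replicate 1, and 1 to 3 red blood cell markers were listed at 0 in 9 libraries. No marker of the other lists was at 0 in any library. The part of cell composition in the differences of the heat shock genes was not tested.

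Between the busulfan groups no tested heat shock gene was called. In IMC minus Sa, which asks whether control microbiota changed the busulfan-treated testis, 0 of 7 passed and the smallest adjusted p was 0.981 over the 3 comparisons. Of all genes limma called 0, and 134 of 15472 had an unadjusted p under 0.05. Hspa2 differed by -0.52 ± 0.82 in IMC minus Sa, with a 95% interval of -2.34 to 1.29, so a change of 1 log2 unit either way lies within it. The intervals of Hspa8 and Hspa5 were narrower, at -0.76 to 0.72 and -0.30 to 0.32. In IMA10 minus Sa, Hspa2 differed by -0.76 with an interval of -2.57 to 1.06, and limma called 0 genes, with 928 under an unadjusted p of 0.05. In IMA10 minus IMC it differed by -0.23, and limma called 0 genes, with 328 under that p. The groups overlapped for all 7 genes in the 3 comparisons, whereas 9.33% of all genes did not overlap in IMC minus Sa, 7.81% in IMA10 minus Sa and 3.36% in IMA10 minus IMC.

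The IMA10 comparisons differ with and without IMA10 replicate 3. Without it Hspa2 had 39.29 and 92.35 FPKM in IMA10, against 327.94, 216.18 and 175.62 in Sa, and fell by 1.92 ± 0.40 on the log2 scale (limma adjusted p = 0.0136, lower in 2 of 2 libraries). Of all genes 32.0% were then called, 1138 higher and 3801 lower. Hspa4l and Hsp90aa1 differed by -0.90 and -1.14 and missed the threshold (adjusted p = 0.0567 and 0.072). Against IMC, Hspa2 differed by -1.40 without that library and missed the threshold (adjusted p = 0.0769). The pachytene marker medians of 2.46 and 9.99% in those 2 IMA10 libraries were below the 22.1 to 38.7% of the Sa libraries.

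Other genes of chaperoning and stress were examined in 11 lists. Their counts as deposited are to be read against 52.0% of all genes called higher and 19.2% lower in Sa minus Con (median 0.60). Under median-of-ratios scaling 5847 of all genes were called higher and 6069 lower there (median -0.02). Without IMA10 replicate 3, 8583 of 15412 genes were called higher and 4623 lower (median 0.61). Among the remaining HSP70 and HSP110 family genes, 3 of 8 were called higher in Sa and 0 lower (median 0.18), and under median-of-ratios scaling 1 higher and 5 lower (median -0.59). Hspa14, a ribosome-associated HSP70, averaged 32.6 FPKM in Sa and 7.98 in Con and rose by 1.90 ± 0.23 (limma adjusted p = 3.26e-04). Hyou1, an HSP110-type chaperone of the endoplasmic reticulum, averaged 116 FPKM in Sa and 59.1 in Con, and its rise of 0.95 ± 0.15 (adjusted p = 4.01e-04) was 0.16 under median-of-ratios scaling (adjusted p = 0.37). Hspa9, the mitochondrial HSP70, differed by 0.19 ± 0.15 without passing (adjusted p = 0.261), and its sign turned under that scaling (-0.61, adjusted p = 0.01). Of the other HSP90 genes, Hsp90b1 of the endoplasmic reticulum averaged 318 FPKM in Sa and 166 in Con. It rose by 0.93 ± 0.22 (adjusted p = 0.00355), which was 0.13 after the scaling (adjusted p = 0.562). Trap1 of mitochondria was at 0.35 ± 0.13 (adjusted p = 0.0321), and at -0.45 after it (adjusted p = 0.0238), so its direction depends on the scaling.

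J-proteins start the HSP70 cycle, and some are known mainly from testis. Of 7 testis J-proteins 6 fell in Sa (median -3.01), against 19.2% of all genes called lower. In IMC and in IMA10 7 of 7 fell, against 23.3% and 23.9% of all genes. The summed level of these 7 was 21.2 to 748 FPKM in IMA10, 77.9 to 180 in IMC, 127 to 281 in Sa and 1870 to 1940 in Con. Dnajb7 averaged 2.95 FPKM in Sa and 66.3 in Con and fell by 4.16 ± 0.77 (adjusted p = 8.55e-04). Dnajb3, the most abundant of them, averaged 100 FPKM in Sa and 783 in Con and fell by 3.01 ± 1.02 (adjusted p = 0.0223). Of 15 general J-proteins 5 were called higher and 4 lower (median 0.13), under median-of-ratios scaling 1 higher and 9 lower, and without IMA10 replicate 3, 7 higher and 6 lower. Dnajc5, the cysteine string protein of secretory vesicles, rose by 2.35 ± 0.37 (adjusted p = 4.37e-04), with means of 46.3 FPKM in Sa and 8.24 in Con. Dnajb4 fell by 2.12 ± 0.42 (adjusted p = 0.00122). Dnajb6 fell by 1.36 ± 0.52 (adjusted p = 0.0374) and did not pass under quantile normalization (adjusted p = 0.11).

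Of 20 co-chaperones and exchange factors 9 were called higher and 4 lower in Sa (median 0.25), shares near those of all genes, against 4 higher and 11 lower under median-of-ratios scaling. Bag1, an HSP70 exchange factor, averaged 120 FPKM in Sa and 298 in Con and fell by 1.31 ± 0.13 (adjusted p = 1.55e-04). Stub1, the ubiquitin ligase that acts with HSP70 and HSP90, averaged 93.7 FPKM in Sa and 36.5 in Con and rose by 1.34 ± 0.20 (adjusted p = 3.71e-04). Fkbp4, an HSP90 partner, was at 0.01 ± 0.14 (adjusted p = 0.943), and its direction depends on the scaling. It was at -0.79 under median-of-ratios scaling (adjusted p = 0.00257) and at 0.49 under quantile normalization (adjusted p = 0.00698). Among 5 tested genes of the heat shock factor list 0 rose and 2 fell (median -0.88), and without IMA10 replicate 3, 1 rose and 3 fell. Hsfy2 averaged 5.48 FPKM in Sa and 59.4 in Con and fell by 3.26 ± 0.83 (adjusted p = 0.00524), and Hsf2, a factor active in spermatogenesis, fell by 0.65 ± 0.26 (adjusted p = 0.0434). Hsf5, a germ cell member, averaged 30.3 FPKM in Sa and 93.7 in Con and did not pass (-1.65 ± 0.99, adjusted p = 0.152). Under median-of-ratios scaling Hsf5 passed at -2.44 (adjusted p = 0.0496).

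Hspa5 is a chaperone of the endoplasmic reticulum, and 17 other genes were examined, both chaperones and stress genes of this organelle. Of these 13 were called higher and 2 lower in Sa (median 1.30, against 0.60 over all genes), 9 higher and 4 lower under median-of-ratios scaling, and 13 higher and 4 lower without IMA10 replicate 3. Calr, the calcium-binding chaperone calreticulin, averaged 835 FPKM in Sa and 340 in Con and rose by 1.29 ± 0.17 (adjusted p = 3.51e-04). The disulfide isomerases Pdia4 and P4hb rose by 2.36 ± 0.28 and by 1.97 ± 0.18 (adjusted p = 2.97e-04 and 1.1e-04). The 2 genes that fell, named here after their values were seen, were Herpud1, a part of the degradation machinery of this organelle, at -2.25 ± 0.27, and the stress transcription factor Ddit3 at -0.95 ± 0.30 (adjusted p = 2.98e-04 and 0.0164). Of 4 endoplasmic reticulum chaperones of testis 1 rose and 2 fell (median -2.55), and 3 fell without IMA10 replicate 3. Calr3, the calreticulin of male germ cells, averaged 6.4 FPKM in Sa and 71.2 in Con and fell by 3.31 ± 0.27 (adjusted p = 5.92e-05), whereas Calr4 rose by 2.52 ± 0.42 (adjusted p = 5.13e-04). Clgn, the testis calnexin needed for sperm surface proteins, averaged 65.6 FPKM in Sa and 248 in Con and did not pass (-1.95 ± 1.04, adjusted p = 0.113). Under median-of-ratios scaling Clgn passed at -2.75 (adjusted p = 0.0385).

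Of 11 chaperonin genes 2 were called higher and 0 lower in Sa (median -0.47), 2 higher and 8 lower under median-of-ratios scaling, and 3 higher and 6 lower without IMA10 replicate 3. The 2 that rose were the mitochondrial pair, Hspd1, with 77 FPKM in Sa and 11.6 in Con (2.62 ± 0.39, adjusted p = 3.69e-04), and its partner Hspe1, with 75 FPKM in Sa and 19.4 in Con (1.90 ± 0.29, adjusted p = 3.87e-04). Tcp1, a subunit of the cytosolic ring, averaged 367 FPKM in Sa and 1000 in Con without passing (-1.47 ± 0.70, adjusted p = 0.0787). Under median-of-ratios scaling Tcp1 passed at -2.28 (adjusted p = 0.0177). In the small heat shock protein list 4 of 9 were called higher and 2 lower (median 0.13), and 4 higher and 4 lower without IMA10 replicate 3. Hspb1 averaged 256 FPKM in Sa and 22 in Con and rose by 3.48 ± 0.51 (adjusted p = 3.71e-04), and Hspb8 rose by 3.88 ± 0.63 (adjusted p = 4.76e-04). Hspb9, the testis form, averaged 152 FPKM in Sa and 1200 in Con and fell by 3.02 ± 1.12 (adjusted p = 0.0326), but did not pass under quantile normalization (adjusted p = 0.0653). Immediate early genes, which respond to stress and to handling of tissue, had 13 of 18 called higher and 3 lower (median 2.27), with Egr1 at 56 FPKM in Sa and 2.47 in Con and Junb at 77.2 FPKM in Sa and 3.86 in Con.

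Likeness of pattern was measured as the root mean square difference of log2(FPKM + 1) over the 12 libraries, each gene centred on its mean, among 9638 genes with a mean of at least 5 FPKM. Hspa2 was most like Enthd1 (0.0404), Hrob (0.0924) and Pwwp3a (0.0932). Hspa4l was most like Asnsd1 (0.0925) and Hsp90aa1 most like Strbp (0.0973). Hspa8 was most like Snd1 (0.0675), Hsp90ab1 most like Smim7 (0.05) and Hspa5 most like Virma (0.0527). The nearest to Hspa1b was Me1 (0.137), but the pattern of Hspa1b depends on the pseudocount because Con is listed at 0. Its Sa minus Con difference was 0.91 with a pseudocount of 1 and 3.26 with 0.1. Between members, Hspa8 and Hsp90ab1 lay 0.27 apart, Hspa4l and Hsp90aa1 0.401 and Hspa2 and Hspa4l 0.411. Hspa2 and Hspa8 lay 2.25 apart, and the cytosolic HSP90 pair 1.67. By this measure Hsp90aa1 lay nearer to the germ cell forms than to Hsp90ab1.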

How the data were processed

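RNA sequencing of testis was deposited as 1 table of 22221 rows and 12 libraries. Its values are the authors' FPKM with 2 decimals, per the file headers. Aligner, counting program, genome build and annotation were not given in the sources used here. The files hold no counts, so depth is unknown. A search of low values for steps of 1 read gave no relative depths (at most 9 rows shared a ratio). FPKM is relative to the library total, so a fall in an abundant class of transcripts raises the values of all others. Groups and replicate numbers came from the sample labels. Gene IDs were given symbols through a RefSeq table (GRCm38.p6), which matched 20141 of 20288. The members and lists were chosen with earlier results of these data known.

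Values were analysed as log2(FPKM + 1). A gene entered if 3 or more libraries had 1 FPKM or above, and the 15472 genes kept were fitted with limma 3.58.1 (R 4.3.3), 1 mean per group over all 12 libraries and a variance trend. Each of 6 differences between groups was adjusted by Benjamini-Hochberg over the genes kept. A gene is called where its adjusted p is under 0.05. Fold changes on this scale understate the change of low genes. Errors are limma's moderated SE, and levels are mean ± SD of n = 3. The procedure was tested, without the filter, on simulated data whose spread was estimated without IMA10 replicate 3. That test does not cover the spread this library adds. Named are the 9 members and, per list, the gene with the highest mean and the 2 with the smallest p in Sa minus Con, plus up to 3 genes of most similar pattern per member, leaving out predicted symbols. The text prints a selection of these, made after the values were seen. The alternatives were median-of-ratios scaling, quantile normalization, a pseudocount of 0.1 and a filter at 5 FPKM or none. The fit was also repeated on the 2 compared groups alone, with the replicate number as a block, with weighted arrays, and without each library. Reading frames were aligned with Biopython 1.88 on GENCODE vM21 transcripts.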

Additional observations from a re-analysis of the deposited data

How the results depend on the processing

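Against Con, 378 of 417 recomputed member results kept their direction and side of the threshold, 22 newly passed, 17 no longer passed and 0 turned direction. These counts include Hspa1b, whose calls the filter selected. Hspa8 and Hsp90ab1 passed in all 3 comparisons under every alternative run. Hspa5 lost its call in Sa minus Con under median-of-ratios scaling. In fits of only the 2 groups compared, Hspa2 passed in Sa and in IMC minus Con (limma adjusted p = 7.73e-04 and 4.08e-04). Hsp90aa1 passed there as well (adjusted p = 0.00402 and 0.00357). With array weights Hspa2 (adjusted p = 3.36e-05 and 4.29e-05) and Hsp90aa1 (adjusted p = 0.00428 and 0.0038) also passed in these 2 comparisons. Hspa2 lost its call in IMA10 minus Con under quantile normalization (-1.78, adjusted p = 0.0605), no filter (adjusted p = 0.0544), the fit of only these 2 groups (adjusted p = 0.123) and most fits without 1 library. The cause was not tested. Unknown depth limits what can be said of Hspa1a, Hspa1b and Hspa1l. No sign of pairing by replicate number was seen in the correlations of deviations from group means. Of same-numbered pairs 5 of 18 correlated above 0.1, against 11 of 36 others. Correlations ran from -0.77 to 0.55 and from -0.68 to 0.76, a spread too wide to exclude a pairing. With the replicate number as a block, Hspa2 in IMA10 minus Con was at -2.09 without passing (adjusted p = 0.0662), and 5 rather than 6 members were called there.

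Between the busulfan groups 47 member results turned direction. Under median-of-ratios scaling IMC minus Sa was 0.06 for Hspa8 and 0.05 for Hsp90ab1, IMA10 minus Sa was 0.11 for Hspa4l and 0.12 for Hspa5, and IMA10 minus IMC was 0.03 for Hspa5. Under quantile normalization Hspa5 was at -0.02 in IMC minus Sa and Hspa1b at 0.04 in IMA10 minus IMC. With a pseudocount of 0.1 Hspa1b was at -0.04 in IMA10 minus Sa. With array weights Hspa1b and Hspa5 were at -0.04 and -0.01 in IMC minus Sa, and Hspa1b, Hspa5, Hspa8 and Hsp90ab1 at -0.01, 0, 0.09 and 0.05 in IMA10 minus Sa. In IMA10 minus IMC, Hspa4l, Hspa1b, Hspa5, Hspa8 and Hsp90ab1 were at -0.53, 0.03, 0.01, 0.09 and 0.09. Leaving out 1 library, IMC minus Sa ranged from -0.03 to 0.04 for Hspa5, -0.04 to 0.01 for Hspa8, -0.09 to 0.02 for Hsp90ab1, -0.43 to 0.06 for Hspa4l and -0.44 to 0.07 for Hsp90aa1. IMA10 minus Sa ranged from -1.92 to 0.13 for Hspa2, -0.90 to 0.53 for Hspa4l, -0.14 to 0.22 for Hspa1b, -0.18 to 0.01 for Hspa5, -0.65 to 0.10 for Hspa8, -1.14 to 0.40 for Hsp90aa1 and -0.51 to 0.08 for Hsp90ab1. IMA10 minus IMC ranged from -1.40 to 0.65 for Hspa2, -0.68 to 0.75 for Hspa4l, -0.19 to 0 for Hspa5, -0.64 to 0.12 for Hspa8, -0.94 to 0.61 for Hsp90aa1 and -0.49 to 0.10 for Hsp90ab1. The difference in the log2 ratio of Hspa2 to Hspa8 ranged from -6.09 to -3.26 in IMA10 minus Con, from -2.05 to 0.79 in IMA10 minus Sa and from -1.54 to 1.29 in IMA10 minus IMC. In IMA10 minus Sa 0 members were called, against 2 with array weights (Hspa2 and Hspa4l), and 0 to 1 leaving out 1 library (Hspa2, without IMA10 replicate 3). Of all genes 5415 were called there with array weights and 4939 without IMA10 replicate 3, and 1118 in IMA10 minus IMC with array weights, against 0 as reported.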
